A study of Arabidopsis thaliana with 4 samples.

Results

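Joined loci are loci of the deposited transcript assembly that carry the codes of 2 or more annotated Arabidopsis thaliana genes in 1 row. They were chosen by the gene name field alone, as the rows in which that field lists several codes separated by commas, and no expression value entered the choice. There were 823 of them among 34288 rows, or 2.40%. Another 32778 rows carried 1 gene code and 687 carried no gene name. RNA sequencing was done on 4 organs of the Col-0 wild type grown in long days at 22 °C. For roots and leaves, plants 2 weeks old were taken from MS plates, a sterile nutrient medium. For flowers and siliques, the seed pods, they were 5 weeks old and stood in soil. The growth notes name the green sample of the plates as the aerial part, while its label reads leaves. Each organ was 1 library, so there are no replicates, no test could be made, and every difference below is a difference between single libraries. Age and growth medium differ between the plate-grown and the soil-grown organs and cannot be told apart from organ there, so folds are given for roots against leaves and for flowers against siliques, and the organ-preferential lists compare 1 organ with the other 3 across both.

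Values are FPKM, fragment counts scaled to transcript length and library size, as the authors estimated them for whole loci. Differences were taken between log2(FPKM + 1) values, so that those of weak loci are understated. The FPKM of a joined locus pools the transcripts of all its genes, so a value cannot be assigned to 1 of them. In bulk organs fewer cells of a type and less RNA per cell cannot be told apart. The number of reads per library is not known here. Loci whose deposited interval runs from 0 to 3 times the value, within 0.001, were taken as holding 1 fragment, and over the 46 to 102 loci of this kind shared by 2 organs the median ratio of values lay between 0.969 and 1.03, so 1 fragment had nearly the same worth in all 4 libraries. Markers of the organs fell where the labels place them for roots, flowers and siliques, with 5 of 5 highest in the labelled organ in each case, and 3 of 5 green tissue markers were highest in leaves, where their summed level was 10006 FPKM beside 8971 FPKM in siliques.

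A transcript assembler builds transcripts from overlapping reads and places all transcripts that overlap on a strand in 1 locus. The Arabidopsis genome is compact, many genes lie close behind each other on the same strand, and copies that arose by tandem duplication often stand side by side. A locus with several gene codes can hold neighbours of unlike function, a small RNA gene inside or beside a longer gene, or neighbouring copies.

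Examples of such loci are shown with sequences from the RefSeq TAIR10.1 genome, because the stretch between joined genes and the likeness of joined copies are what these loci have in place of a single gene. The first kind is a short stretch between genes of unlike function. The bases between the annotated ends are printed 5′ to 3′ on the strand of the genes, and capitals mark TATAAA, the core letters of a plant promoter element, where present. All 5 pairs lie on the minus strand, so each line runs from the gene with the higher coordinates to the one with the lower. MLO13 and GH9A3 are separated by chr4:12577584-12577629 (minus strand), FLR1 and AT3G12150 by chr3:3876303-3876338 (minus strand), and PMDH2 and AT5G09670 by chr5:2995785-2995911 (minus strand). The second kind is a cluster of microRNA precursors: MIR169m and MIR169n are separated by chr3:9878380-9878539 (minus strand) and MIR169k and MIR169l by chr3:9875738-9875892 (minus strand).
GH9A3 to MLO13: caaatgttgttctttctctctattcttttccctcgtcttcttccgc
AT3G12150 to FLR1: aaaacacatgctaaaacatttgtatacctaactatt
AT5G09670 to PMDH2: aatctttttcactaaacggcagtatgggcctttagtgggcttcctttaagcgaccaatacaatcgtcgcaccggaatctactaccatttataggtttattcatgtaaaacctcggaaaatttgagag
MIR169n to MIR169m: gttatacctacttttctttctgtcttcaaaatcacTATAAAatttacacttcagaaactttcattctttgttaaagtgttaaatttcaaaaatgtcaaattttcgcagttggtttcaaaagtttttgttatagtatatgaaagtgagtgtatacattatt
MIR169l to MIR169k: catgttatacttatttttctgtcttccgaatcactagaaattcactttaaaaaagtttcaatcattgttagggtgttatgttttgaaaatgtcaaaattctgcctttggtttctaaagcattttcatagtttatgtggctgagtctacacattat

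The third kind is a pair of gene copies. The first 90 coding bases of both genes are printed, with capitals at the positions where the partner has another base. SUO and AT3G48060 (minus strand of chromosome 3) differ there at 1 of 90 positions, AGL58 and AGL59 (plus strand of chromosome 1) at 3, and LCR20 and LCR6 (minus strand of chromosome 5) at 6. ANN6 and ANNAT7 (minus strand of chromosome 5) differ at 14, and AT3G28810 and AT3G28980 (minus strand of chromosome 3) at 15.
SUO: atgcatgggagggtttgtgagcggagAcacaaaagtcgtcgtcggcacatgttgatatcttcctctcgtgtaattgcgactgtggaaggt
AT3G48060: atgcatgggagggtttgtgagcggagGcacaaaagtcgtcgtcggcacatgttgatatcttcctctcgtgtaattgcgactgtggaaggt
AGL58: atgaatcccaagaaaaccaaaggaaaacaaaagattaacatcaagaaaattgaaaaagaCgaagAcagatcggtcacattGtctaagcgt
AGL59: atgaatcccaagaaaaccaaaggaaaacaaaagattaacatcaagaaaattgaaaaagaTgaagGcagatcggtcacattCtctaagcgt
LCR20: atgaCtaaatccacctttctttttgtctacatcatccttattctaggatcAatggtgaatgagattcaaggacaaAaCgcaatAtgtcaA
LCR6: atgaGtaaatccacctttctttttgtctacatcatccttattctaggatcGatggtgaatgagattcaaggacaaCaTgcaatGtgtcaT
ANN6: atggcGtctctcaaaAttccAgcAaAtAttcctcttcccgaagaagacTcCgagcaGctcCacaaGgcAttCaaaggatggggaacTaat
ANNAT7: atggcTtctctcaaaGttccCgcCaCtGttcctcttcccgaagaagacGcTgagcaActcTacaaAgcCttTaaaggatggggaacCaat
AT3G28810: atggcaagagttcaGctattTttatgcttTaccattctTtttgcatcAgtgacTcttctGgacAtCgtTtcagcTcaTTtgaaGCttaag
AT3G28980: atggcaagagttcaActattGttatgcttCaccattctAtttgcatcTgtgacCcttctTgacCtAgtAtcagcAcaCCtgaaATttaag

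Of the 823 joined loci, 713 carried 2 codes, 81 carried 3 and 18 carried 4. The remaining loci carried 5 to 13 codes. They listed 1816 different codes. In the RefSeq annotation 1410 of these were protein-coding, 147 were pseudogenes, 29 were microRNA precursors, 22 were tRNA genes, 19 were snoRNA genes, 4 were snRNA genes and 37 were other noncoding RNAs, while 83 lay in the organelle genomes and 65 had no entry of that code. The annotation uses the coordinates of the authors' build: 98.4% of 32115 loci with 1 nuclear code overlapped the annotated position of their own code, as did 99.6% of 1669 code positions of joined loci.

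Nearly all joined genes pointed the same way. Of 863 neighbouring pairs within joined loci with both positions in the annotation, 850 (98.5%) lay on the same strand, 9 faced each other with their 3′ ends and 4 with their 5′ ends. Among all 26603 pairs of neighbouring coding genes of the nuclear genome, 52.3% lay on the same strand. The deposited rows joined 574 of the 13901 same-strand neighbours (4.13%), 7 of 6351 pairs with facing 3′ ends and 2 of 6351 with facing 5′ ends. One gene lay inside the other in 42 joined pairs, 169 pairs shared bases without that, and 652 had a gap with a median of 179 bases. No other annotated gene stood between them in 686 pairs (79.5%).

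Joined same-strand coding neighbours lay closer together than those not joined. Their median gap was 56 bases, beside 857 bases for those not joined, with overlapping genes included as negative gaps. The share joined was 31.9% for annotated genes that overlap, 14.1% at gaps of 0 to 99 bases and 5.45% at 100 to 249 bases. It went on down to 0.873% at 2000 bases or more. Within each distance class under 2000 bases the share was higher for neighbours with like proteins, meaning at least 50% identical residues over the longer protein. The ratio was largest at 250 to 499 bases, with 7.41% (12 of 162) against 1.94% (32 of 1648). It was small at 0 to 99 bases, with 15.2% (12 of 79) against 14.0% (196 of 1397). For overlapping genes the shares were 37.5% (12 of 32) and 31.5% (132 of 419). These counts describe the annotation and the deposited names, and the distance classes were chosen after the data had been seen.

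**Figure D1:**
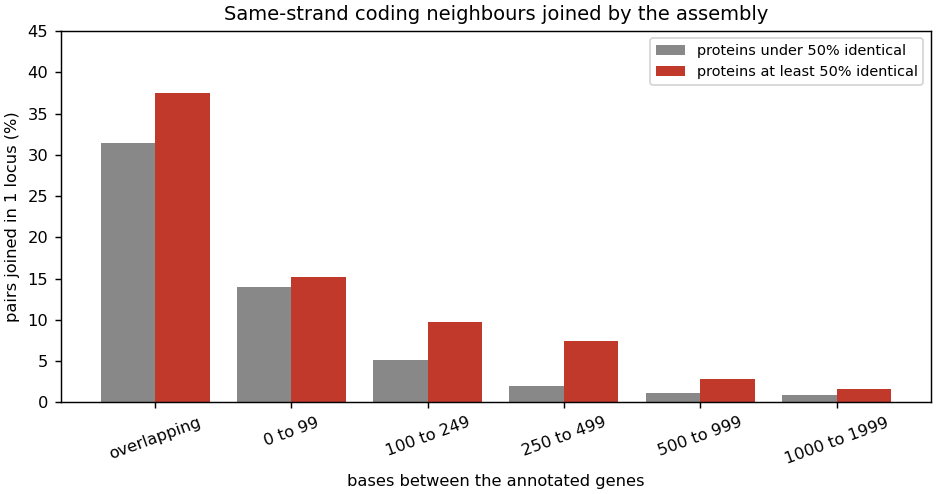
Share of same-strand neighbouring coding genes that the deposited table holds in 1 locus (vertical axis, percent), by the bases between the annotated genes (horizontal axis), for pairs whose proteins are at least 50% identical and for other pairs. The share of other pairs is 31.5% for overlapping genes and 0.866% at 1000 to 1999 bases, and the pairs with like proteins stand above them in each class, from 37.5% to 1.62%.

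The letters of the gaps were compared between joined and unjoined same-strand coding neighbours at 50 to 249 bases, a search added after the data had been seen. The median GC content was 34.5% over 165 joined gaps and 32.6% over 2083 others. TATAAA stood on the strand of the genes in 13.9% of the joined gaps and 19.2% of the others, and on either strand in 22.4% and 28.0%. AATAAA, the letters of the canonical animal polyadenylation signal, which can share bases with TATAAA, stood on the strand of the genes in 17.6% and 24.9%, and on either strand in 25.5% and 37.6%. Joined gaps were shorter, with a median of 102 against 144 bases, and the part of length in these shares was not tested. Of the gaps printed above, the one between MIR169m and MIR169n holds TATAAA on the gene strand and the one between MIR169k and MIR169l does not.

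The levels of joined loci were close to those of other loci in the middle of the range and seldom extreme. A usable status in all 4 organs and at least 1 FPKM in 1 organ were required for comparison, and 752 joined loci (91.4%) met both, beside 22480 of 32778 loci with 1 code (68.6%). Of the others, 14 lacked a usable status and 57 stayed under 1 FPKM. The median of the highest FPKM over the 4 organs was 19.0 for joined loci and 17.8 for loci with 1 code. The 90th percentile was 74.8 against 97.4 FPKM, and 100 FPKM was reached by 43 joined loci (5.72%) against 9.70% of loci with 1 code. Joined loci held from 2.39% of the summed FPKM of all usable loci in siliques to 2.79% in flowers.

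Values of joined loci were more even across organs than those of loci with 1 code. At least 1 FPKM in all 4 organs was seen in 610 of 752 (81.1%), beside 68.3% of loci with 1 code. Tau, an index that is 0 for equal values and 1 for expression in 1 organ, had a median of 0.196 against 0.237, and it reached 0.8 in 56 joined loci (7.45%) against 15.8% of loci with 1 code. The difference was widest among weak loci. At highest values of 1 to 10 FPKM the median tau was 0.315 over 226 joined loci and 0.490 over 7454 loci with 1 code, whereas at 10 to 100 FPKM it was 0.161 and 0.175. Because a joined row pools genes, unjoined same-strand coding neighbours less than 250 bases apart were also summed, a comparison added after the data had been seen. The 2740 summed pairs had a median tau of 0.121 and a median highest value of 46.8 FPKM, thus lower in tau and higher in level than joined loci. Over summed pairs at any distance (11037) the median tau was 0.179 and the median highest value 38.3 FPKM.

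**Figure D2:**
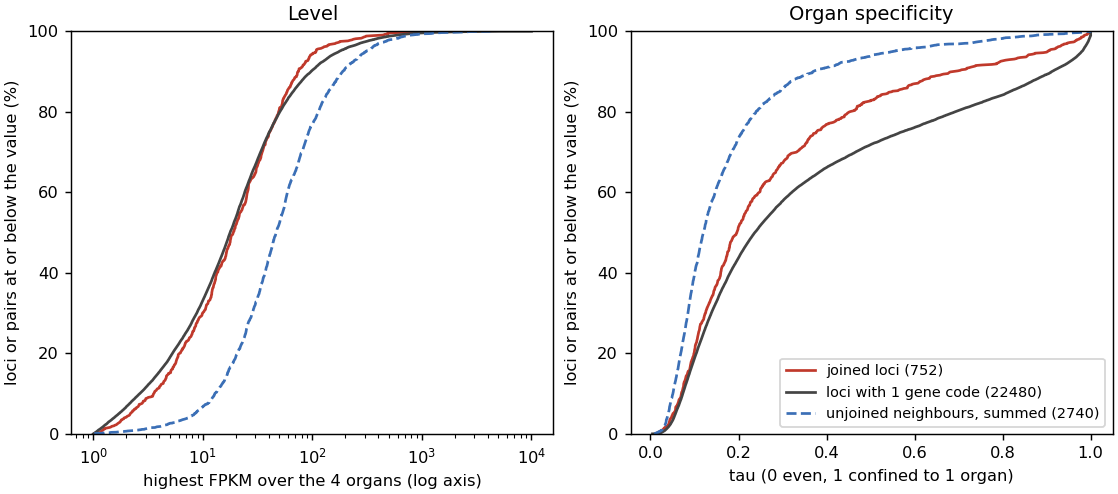
Cumulative share of loci or pairs (vertical axes, percent) by the highest FPKM over the 4 organs (left, log axis) and by tau (right), for 752 joined loci, 22480 loci with 1 gene code and 2740 unjoined same-strand neighbours less than 250 bases apart whose FPKM were summed. The median highest FPKM is 19.0 for joined loci and 17.8 for loci with 1 code, and the median tau of joined loci, 0.196, lies between the 0.121 of summed pairs and the 0.237 of loci with 1 code.

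Differences of at least 4-fold between matched organs had nearly the share of the whole table for leaves over roots and lower shares in the other directions. Of the 752 joined loci, 49 (6.52%) were at least 4-fold higher in roots than in leaves, beside 9.09% of all compared loci, and 55 (7.31%) were higher in leaves than in roots, beside 7.42%. In the soil-grown organs 21 (2.79%) were higher in flowers than in siliques, beside 4.94%, and 13 (1.73%) were higher in siliques than in flowers, beside 3.63%. Summed unjoined neighbours less than 250 bases apart had 4.31%, 6.90%, 1.97% and 0.693% in the same order, each below the joined share. Summed pairs at any distance had 9.23%, 7.09%, 4.39% and 3.85%, above the joined share except for leaves over roots. The balance of directions depended on the scaling of the libraries. Roots took 47.1% of the 104 calls between roots and leaves as deposited and 36.4% of 107 after median-of-ratios scaling, which lowers roots against leaves by 0.44 on the log2 scale. Over all compared loci the same share went from 55.1% to 44.7%. Flowers took 61.8% of 34 calls as deposited and 51.7% of 29 after that scaling, which lowers flowers against siliques by 0.24, and over all compared loci the share went from 57.6% to 51.3%. As deposited, the median log2 difference of roots minus leaves was 0.28 for joined loci and 0.34 for all compared loci, and that of flowers minus siliques was 0.21 and 0.19.

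Organ-preferential loci, at least 4-fold above each of the other 3 organs, numbered 30 in roots (3.99%), beside 5.73% of all compared loci. Leaves had 5 (0.665%), beside 0.699%. Flowers had 14 (1.86%), beside 3.65%, and siliques had 11 (1.46%), beside 2.82%. At this threshold each of these shares was below that of the whole table, by little in leaves. Summed unjoined neighbours less than 250 bases apart had 2.12%, 0.182%, 1.31% and 0.547% in the same order, each below the joined share. Summed pairs at any distance had 4.88%, 0.652%, 2.98% and 2.83%, above the joined share except in leaves. All 60 organ-preferential joined loci made up 7.98% of the 752, beside 12.9% of all compared loci. The order turned where the deposited intervals of the organs also had to be apart. Of the 752 joined loci, 12 (1.60%) were then higher in roots than in leaves, beside 0.643% of all compared loci, and 17 (2.26%) higher in leaves than in roots, beside 0.711%. In siliques 5 (0.665%) were higher than in flowers, beside 0.166%, while 1 was higher in flowers, beside 0.209%. Among joined loci preferential to an organ by that rule, 9 (1.20%) were of roots, beside 0.413%, and 5 (0.665%) of siliques, beside 0.128%. Lower interval ends above 0 were themselves more frequent in joined loci, at 39.5% against 12.6% of loci with 1 code in roots, and their part in these shares was not tested.

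**Figure D3:**
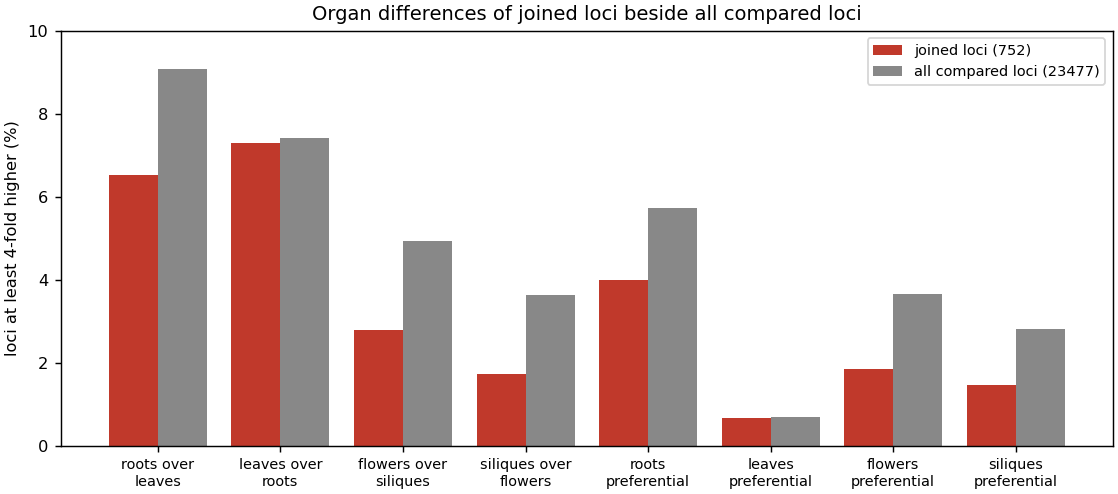
Share of joined loci and of all compared loci (vertical axis, percent) at least 4-fold higher in 1 organ of a matched pair, or in 1 organ than in each of the other 3. The bars of joined loci are at 6.52% and 7.31% for roots over leaves and leaves over roots, and the bar of all compared loci is higher in every group. No interval rule is applied here.

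The root-preferential locus with the largest ratio held extensin-like cell wall genes, and the next held kinase genes. The locus of AT4G08400 and AT4G08410, proline-rich extensin-like genes, was at 93.0 FPKM in roots, 0.0374 in leaves and 0.00403 in flowers and was listed at 0 in siliques. Roots were 6.50 higher than leaves on the log2 scale, and the intervals of these organs were apart. The genes stand 13444 bases apart with 2 others between, and their proteins are 70.7% identical. AT1G51830, a leucine-rich repeat protein kinase gene, joined with the kinase-like AT1G51840, was at 96.6 FPKM in roots, 0.728 in leaves, 0.0870 FPKM in flowers and 0.0259 FPKM in siliques. Roots stood alone here too, 5.82 above leaves on the log2 scale. AT1G31050, a basic helix-loop-helix gene, joined with an unmatched code, was at 34.1 FPKM in roots and between 0.202 and 0.376 FPKM elsewhere. ORP1A and ORP1B, genes of oxysterol-binding-protein-related proteins, had 25.6 FPKM in roots, 0.877 in leaves, 0.327 FPKM in flowers and 0.0454 FPKM in siliques. The tRNA gene AT2G30850 was joined with the oxygenase gene AT2G30840 at 26.9 FPKM in roots and at most 0.791 FPKM elsewhere. In each of these loci roots were the only organ above 1 FPKM.

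The other 3 of the 8 named root-preferential loci held close neighbours. AT1G30750 and AT1G30755, 6 bases apart, were at 86.4 FPKM in roots and between 3.31 and 4.26 FPKM in the other organs. CYP71A28 and CYP71A27, neighbouring cytochrome P450 genes with a gap of 57 bases and proteins 37.3% identical, were at 21.7 FPKM in roots and at most 0.562 FPKM elsewhere. AT3G51642 and AT3G51644, 3 bases apart and of unknown function, were at 25.4 FPKM in roots and at most 0.365 FPKM elsewhere. The 5 largest roots-over-leaves ratios also took in the loci of ENDO3 and MYB92. ENDO3 and ENDO5, endonuclease genes with proteins 77.4% identical, were at 55.4 FPKM in roots, 1.19 in leaves, 69.1 FPKM in flowers and 13.8 FPKM in siliques, so flowers were the highest. MYB92, a MYB transcription factor gene joined with the noncoding AT5G10278, was at 38.1 FPKM in roots, 0.894 in leaves, 1.91 FPKM in flowers and 0.518 FPKM in siliques. It was preferential to roots, and the ENDO3 locus was not.

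The 5 leaf-preferential loci held genes of trichome patterning, a histone, a camalexin enzyme, a Rossmann-fold protein and microRNAs. ETC2 and TCL2, R3-type MYB genes that hold back trichome formation, were at 0.0587 FPKM in roots, 49.6 in leaves, 1.08 FPKM in flowers and 0.309 FPKM in siliques. Leaves were 4.60 above the next organ on the log2 scale, and the gap between these genes is 821 bases with proteins 62.5% identical. HTA4, a histone H2A gene, joined with AT4G13572, was at 0.152 FPKM in roots, 53.7 in leaves, 0.807 FPKM in flowers and 1.22 FPKM in siliques. Leaves were 4.62 above the next organ. CYP71A13, a cytochrome P450 of camalexin synthesis, joined with AT2G30760, was at 13.1 FPKM in leaves and at most 0.380 FPKM elsewhere. The pseudogene AT2G29280 and AT2G29290, a Rossmann-fold protein gene that overlaps it, were at 0.0667 FPKM in roots, 81.7 in leaves, 11.5 FPKM in flowers and 2.81 FPKM in siliques. The fifth, with MIR850 and MIR863, is described with the microRNAs. The 5 loci had leaves at or above 13.1 FPKM and roots at or below 7.61 FPKM.

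The fifth largest leaves-over-roots ratio belonged to AT3G47160 and AT3G47250, which was not leaf-preferential, at 0.989 FPKM in roots, 79.9 in leaves, 18.0 FPKM in flowers and 25.4 FPKM in siliques. AT3G47160 also had a row of its own, and that row was higher in roots, at 68.4 FPKM, than in leaves, at 35.5 FPKM. These genes, a RING/U-box gene and a gene of unknown function, lie 37516 bases apart with 13 annotated genes between them. PMDH2, which makes the peroxisomal malate dehydrogenase used in photorespiration and fatty acid breakdown, stood with AT5G09670 and an unmatched code in a locus at 18.6 FPKM in roots, 693 in leaves, 208 FPKM in flowers and 281 FPKM in siliques. PRPL28, a plastid ribosomal protein gene, joined with AT2G33435 and AT2G33440, was at 32.3, 380, 162 and 192 FPKM in the same order. Both were lowest in roots and highest in leaves, and in neither were leaves 4-fold above siliques.

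Flower-preferential loci were led by AT3G28810 and AT3G28980, genes of DUF1216 proteins 78.0% identical. The locus was at 0.0226 FPKM in roots, listed at 0 in leaves, at 456 FPKM in flowers and at 8.99 FPKM in siliques. Flowers were 5.51 above siliques on the log2 scale. The 169131 bases between these genes, with 42 annotated genes inside, were the longest gap of any joined pair. FLR1, a leucine-rich repeat gene, joined with AT3G12150 across 36 bases, was at 17.5 FPKM in roots, 26.8 in leaves, 517 FPKM in flowers and 53.3 FPKM in siliques. Flowers were the highest here as well, 3.26 above siliques, and the other organs were all above 10 FPKM.

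Outside flowers the other named flower-preferential loci were below 3 FPKM. AT3G21985 and AT3G21990, the latter encoding a cysteine-rich repeat secretory-like protein, were listed at 0 in roots and leaves, at 25.3 FPKM in flowers and at 0.00497 FPKM in siliques. ENODL7, an early nodulin-like gene joined with AT1G79780, was at 30.7 FPKM in flowers and between 0.476 and 0.702 FPKM elsewhere. CHAL, a secreted peptide gene of stomatal patterning joined with an unmatched code, was at 2.01 FPKM in roots, 2.92 in leaves, 30.2 FPKM in flowers and 0.330 FPKM in siliques. AT4G18395 and AT4G18400 overlap by their 3′ ends on opposite strands and were at 19.3 FPKM in flowers and at most 0.749 FPKM elsewhere. A row of AT4G18400 alone was even, between 8.43 and 12.8 FPKM. AT5G11130, an exostosin family gene, and AT5G63063, a thionin family gene, each joined with an unmatched code, were at 8.97 and 8.65 FPKM in flowers and listed at 0 in roots and leaves. The CHAL locus was the only one called higher in flowers than in siliques whose intervals in these organs were apart.

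Loci with like proteins numbered 6 of the 11 silique-preferential loci, beside 83 of all 752 compared joined loci (11.0%). They numbered 6 of the 30 root-preferential, 1 of the 5 leaf-preferential and 2 of the 14 flower-preferential loci. SK9 and SK10, genes of SKP1-like subunits of ubiquitin ligases, were at 0.116 FPKM in roots, 0.264 in leaves, 0.523 FPKM in flowers and 63.6 FPKM in siliques. Siliques were 5.41 above flowers, and the proteins are 84.3% identical across a gap of 2106 bases. ANN6 and ANNAT7, annexin genes of calcium-dependent membrane binding, were at 9.25 FPKM in roots, 0.0555 in leaves, 0.267 FPKM in flowers and 68.5 FPKM in siliques. The overlapping AT1G63055 and AT1G63057, of unknown function and with proteins 85.3% identical, were at 2.84 FPKM in roots, listed at 0 in leaves, at 4.20 in flowers and at 220 in siliques. In these 3 loci siliques were highest and their intervals were apart from those of flowers.

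LCR20 and LCR6, genes of small cysteine-rich defensin-like peptides, were listed at 0 in roots and leaves, at 0.774 FPKM in flowers and at 10.3 FPKM in siliques. AT1G61320 and AT1G61330, F-box-related genes with proteins 69.1% identical, were listed at 0 in roots and reached 9.08 FPKM in siliques, with at most 0.0632 FPKM elsewhere. MES6 and MES7, methyl esterase genes, were at 8.39 FPKM in roots, 1.55 in leaves, 2.83 FPKM in flowers and 39.5 FPKM in siliques. Silique-preferential loci of unlike genes included MLO13 with GH9A3, the latter a glycosyl hydrolase gene. That locus was at 3.09 FPKM in roots, 1.61 in leaves, 7.94 FPKM in flowers and 71.7 FPKM in siliques. The pair stands 46 bases apart. AHA10, a proton pump gene known from the seed coat, joined with the noncoding AT1G17255, was at 1.78 FPKM in roots, 1.29 in leaves, 4.16 FPKM in flowers and 37.3 FPKM in siliques. LAS1, the lanosterol synthase gene, joined with AT3G45120, was at 1.15, 0.133, 1.08 and 12.1 FPKM in the same order. All of these loci were highest in siliques by more than 4-fold.

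**Figure D4:**
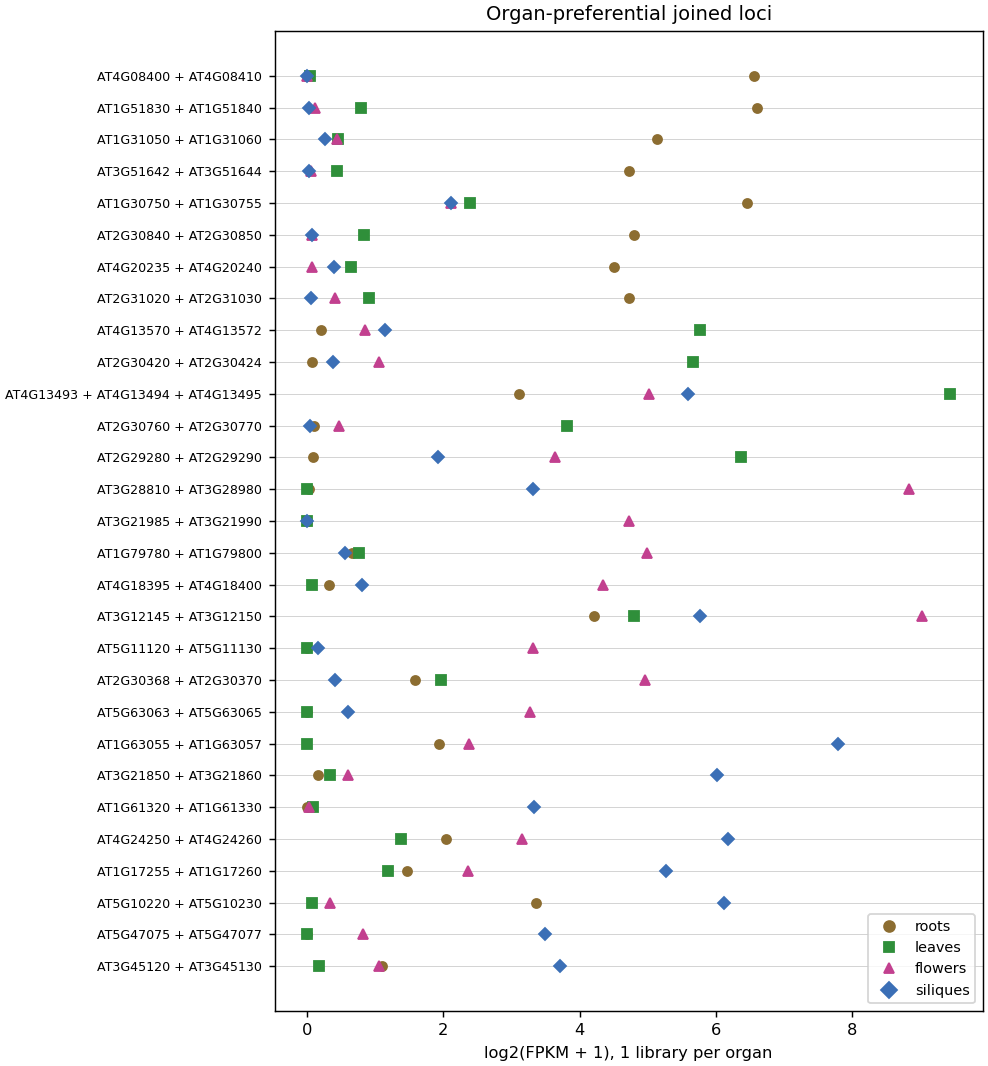
Values of the named organ-preferential joined loci on the log2(FPKM + 1) scale (horizontal axis), 1 point per organ and locus, with the loci grouped from top to bottom by roots, leaves, flowers and siliques. Points at 0 overlap. The preferred organ stands apart at the right of every line, as for the extensin pair at 93.0 FPKM in roots against 0.0374 FPKM in leaves.

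The 10 strongest compared joined loci held genes of general metabolism and of single organs. The locus of SAMDC, S-adenosylmethionine decarboxylase of polyamine synthesis, with an unmatched code, was at 758 FPKM in roots, 592 in leaves, 810 FPKM in flowers and 1161 FPKM in siliques. Its deposited interval started at 0 in all 4 organs. BBC1, a ribosomal protein L13 gene, joined with AT3G48960 of the same family across 15295 bases, was at 449, 255, 408 and 322 FPKM in the same order. GSTF8, a glutathione S-transferase gene joined with AT2G47720 inside it, was at 487 FPKM in roots, 205 in leaves, 107 FPKM in flowers and 112 FPKM in siliques. SAMDC and BBC1 each varied by less than 2-fold over the organs, while GSTF8 was highest in roots. AT5G33370, a GDSL-type lipase gene joined with AT5G33365, was listed at 0 in roots and was at 8.81 FPKM in leaves, 486 FPKM in flowers and 172 FPKM in siliques. PIP1;4, an aquaporin gene joined with AT4G00413, was at 35.0, 190, 310 and 196 FPKM. These last loci were lowest in roots.

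The most even joined loci included those of an aminotransferase-like gene, an RNA-binding protein gene and a mitochondrial transcription termination factor gene. At 10 FPKM or more in every organ the lowest tau belonged to AT5G57830, AT5G57840 and ADCL, an aminotransferase-like gene, at 40.9 FPKM in roots, 43.5 in leaves, 41.7 FPKM in flowers and 40.9 FPKM in siliques. AT3G49645 and AT3G49650 were at 13.6, 13.8, 13.7 and 12.3 FPKM. The chain of emb2739, AT4G14600 and MDA1, a mitochondrial transcription termination factor gene, with gaps of 46 and 38 bases, was at 22.7, 25.7, 26.0 and 24.8 FPKM. ATRZ-1A, an RNA-binding protein gene overlapping AT3G26430, was at 39.0, 34.0, 39.4 and 36.4 FPKM. The other 4 of the 8 lowest tau values, at 0.03 or less, belonged to AT3G61200 with AT3G61210, AT3G04181 with AT3G04485 and AT3G04490, AT1G80020 with AT1G80030 and AT1G80040, and AT1G55675 with AT1G55680. A range of less than 2-fold over the organs held in 320 of the 752 joined loci (42.6%), beside 35.0% of loci with 1 code.

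Neighbours with like proteins made up 95 of 637 aligned same-strand coding pairs (14.9%) in 89 joined loci. Their median identity was 72.1%, and 7 pairs reached 90%. They were farther apart than other joined coding pairs, with a median gap of 518 against 54 bases, overlapping genes included as negative gaps. Like proteins were about as common among joined same-strand neighbours under 2000 bases (63 of 543, 11.6%) as among those not joined (1077 of 9806, 11.0%). The 83 compared loci with like proteins had a median tau of 0.304, against 0.172 over 453 loci of other coding genes, at median highest values of 21.8 and 21.2 FPKM. Organ-preferential loci numbered 15 of those 83 (18.1%) and 29 of those 453 (6.40%). The share over all compared loci was 12.9%, as given above, and the 202 loci with a noncoding, pseudogene or unmatched code had 16 (7.92%).

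The loci with the 10 most alike pairs ranged from weak to strong. LURE1.2 and LURE1.5, genes of pollen tube attractant peptides, 95.6% identical, shared a locus with ARP9, an actin-related protein gene, at 12.5 FPKM in roots, 11.7 in leaves, 32.4 FPKM in flowers and 18.8 FPKM in siliques. SUO, a gene of microRNA-directed translational control, and AT3G48060, 95.5% identical, were at 41.4, 27.4, 34.2 and 26.2 FPKM. Ribosomal protein S19 genes AT5G09490, AT5G09500 and AT5G09510 were at 149, 103, 178 and 128 FPKM, with 92.1% identity between the last 2. These loci differed by less than 3-fold over the organs. ABCG41, ABCG30, ABCG42 and ABCG43, genes of pleiotropic drug resistance transporters, were at 16.1 FPKM in roots, 5.30 in leaves, 4.17 FPKM in flowers and 1.85 FPKM in siliques. ACX3 and ACX6, acyl-CoA oxidase genes of fatty acid breakdown, were at 78.2, 46.2, 63.9 and 39.7 FPKM. AT3G27325 with the self-incompatibility S1 family genes AT3G27329 and AT3G27331 was listed at 0 in roots and leaves, at 23.3 FPKM in flowers and at 4.27 FPKM in siliques. AT3G27325 also had its own row, at 23.0 FPKM in roots, 12.2 in leaves, 16.7 FPKM in flowers and 11.4 FPKM in siliques. AT4G31351 and AT4G31354, whose first 90 coding bases are the same, stayed between 1.45 and 3.68 FPKM, and AT3G02610 and AT3G02620, acyl-carrier desaturase genes, between 0.801 and 2.57 FPKM. AGL58 and AGL59, MADS-box genes, reached 2.99 FPKM in siliques and at most 0.0612 FPKM elsewhere, and ARF22 and ARF21, auxin response factor genes, reached 1.18 FPKM in siliques and at most 0.0595 FPKM elsewhere. Reads from near-identical copies cannot be placed with certainty, so the levels of these pairs are uncertain.

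Among gene families, 61 of the compared joined loci held a kinase code (8.11%), beside 5.12% of loci with 1 code. Since a joined locus has several codes, the share per code is the closer measure, and it was 4.90%. Disease resistance genes made up 1.49% of codes in joined loci and 0.636% of loci with 1 code, and F-box genes 1.61% and 1.05%. Transcription factor genes made up 1.97% and 3.77%, lipid transfer genes 0.0597% and 0.547%, and ribosomal protein genes 0.657% and 1.44%. SNC1 with AT4G16900, both TIR-type resistance genes, was at 16.5 FPKM in roots, 75.3 in leaves, 35.8 FPKM in flowers and 36.9 FPKM in siliques. RPP8, a CC-type resistance gene, with AT5G43480 was at 3.61, 48.9, 19.6 and 19.9 FPKM. AT5G38344, a TIR domain gene, and AT5G38350, of the NBS-LRR class, were at 14.0 FPKM in roots and at most 0.0918 FPKM elsewhere. The first 2 of these resistance loci were highest in leaves and the third in roots, and these examples were chosen after their values had been seen from loci whose intervals were apart.

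MicroRNAs are short RNAs cut from hairpin precursors that guide the silencing of matching transcripts. There were 24 joined loci with a microRNA code, of which 23 were compared. Printed from the RefSeq features are 12 mature RNAs, chosen for the loci preferential to an organ, the miR169 clusters and the examples inside or beside longer genes, with the seed, bases 2 to 8, in capitals. Other arms and members are not shown. The 5 miR169 RNAs printed share the seed AGCCAAG, and those of MIR169k, MIR169l, MIR169m and MIR169n are the same.
ath-miR169a-5p: cAGCCAAGgaugacuugccga
ath-miR169k: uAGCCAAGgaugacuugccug
ath-miR169l: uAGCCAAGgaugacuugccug
ath-miR169m: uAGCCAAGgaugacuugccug
ath-miR169n: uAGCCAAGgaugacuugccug
ath-miR850: uAAGAUCCggacuacaacaaag
ath-miR863-5p: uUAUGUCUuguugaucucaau
ath-miR870-3p: uAAUUUGGuguuucuucgauc
ath-miR163: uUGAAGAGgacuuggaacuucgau
ath-miR860: uCAAUAGAuuggacuauguau
ath-miR825: uUCUCAAGaaggugcaugaac
ath-miR472-3p: uUUUUCCUacuccgcccauacc

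The median of the highest FPKM was 6.29 over the 23 compared microRNA loci, beside 19.0 over all joined loci. Among them 10 were highest in flowers (43.5%), 6 in roots (26.1%), 6 in leaves (26.1%) and 1 in siliques (4.35%). Over all compared joined loci these shares were 34.3%, 37.0%, 16.1% and 12.6%. These values describe assembled transcripts and not mature microRNAs. Where a longer gene shares the locus, its transcripts and the precursor cannot be told apart. The locus of MIR850, MIR863 and the noncoding AT4G13495 was at 7.61 FPKM in roots, 693 in leaves, 31.5 FPKM in flowers and 47.4 FPKM in siliques. Leaves were 3.84 above the next organ on the log2 scale, and their interval was apart from that of roots. MIR870 with AT5G52790, a CBS domain gene 528 bases away, was at 25.1 FPKM in roots, 0.451 in leaves, 0.859 FPKM in flowers and 0.888 FPKM in siliques. These were the only microRNA loci preferential to an organ.

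The miR169 loci were weak and highest in roots or leaves. MIR169k with MIR169l was at 0.0890 FPKM in roots and 1.55 FPKM in leaves, was listed at 0 in flowers, and was at 0.0152 FPKM in siliques. MIR169m with MIR169n was at 0.557 FPKM in roots and 2.16 FPKM in leaves, was listed at 0 in flowers, and was at 0.0511 FPKM in siliques. Leaves were the highest organ of both clusters, which lie close to each other on chromosome 3. MIR169a, joined with the defensin-like gene AT3G13403 and AT3G13404, was at 4.58 FPKM in roots, 3.81 in leaves, 0.181 FPKM in flowers and 0.0113 FPKM in siliques.

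Several microRNA genes lay inside or beside a longer gene. FC1, the ferrochelatase gene of haem synthesis that contains MIR860, was at 108 FPKM in roots, 22.1 in leaves, 82.7 FPKM in flowers and 59.8 FPKM in siliques. LIG6, a DNA ligase gene, with MIR163 was at 13.6, 16.7, 34.1 and 21.8 FPKM. MIR472, a regulator of resistance genes, lies inside AT1G12290, a gene of the CC-type resistance class, and this locus was at 6.68 FPKM in roots, 1.22 in leaves, 2.16 FPKM in flowers and 1.84 FPKM in siliques. MIR825 inside the pseudogene AT2G26220 was at 0.0122 FPKM in roots, 6.91 in leaves, 0.985 FPKM in flowers and 1.90 FPKM in siliques. The row of AT2G26220 alone was highest in roots at 4.21 FPKM and was at 1.17 FPKM in leaves. The FC1 and MIR472 loci were highest in roots, LIG6 in flowers and MIR825 in leaves. MIR156d with AT5G10946 had its highest value, 11.1 FPKM, in flowers and its lowest, 2.40 FPKM, in roots. MIR166b with AT3G61898 was lowest in leaves at 4.10 FPKM and between 11.7 and 13.1 FPKM in the other organs. MIR842 and MIR846, 109 bases apart and joined with AT1G61230, were at 2.28 FPKM in roots and at most 0.203 FPKM elsewhere. MIR771 with MIR851 reached 0.876 FPKM in flowers and at most 0.0108 FPKM elsewhere and was not compared.

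Of the remaining microRNA loci, the highest in roots was that of MIR834 at 20.5 FPKM. AT1G21200, a DNA-binding factor gene that contains MIR781a, had 15.7 FPKM in roots and between 5.87 and 7.68 FPKM elsewhere. AT4G23380 with MIR845a was listed at 0 in roots and leaves and reached 1.92 FPKM in siliques. OTP86, a gene of an organelle RNA-editing protein, with MIR167b was at 1.59 FPKM in roots and 4.64 FPKM in leaves. MIR844 was highest in leaves at 3.52 FPKM. The loci of MIR167c, MIR413, MIR777, MIR830, MIR834, MIR835 and MIR447a varied by less than 2-fold on the FPKM + 1 scale. AT3G04760 of the MIR167c locus also had its own row, at 2.11 FPKM in roots and 44.2 FPKM in leaves. Their highest values ran from 1.80 FPKM for MIR777 to 27.8 FPKM for MIR834.

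**Figure D5:**
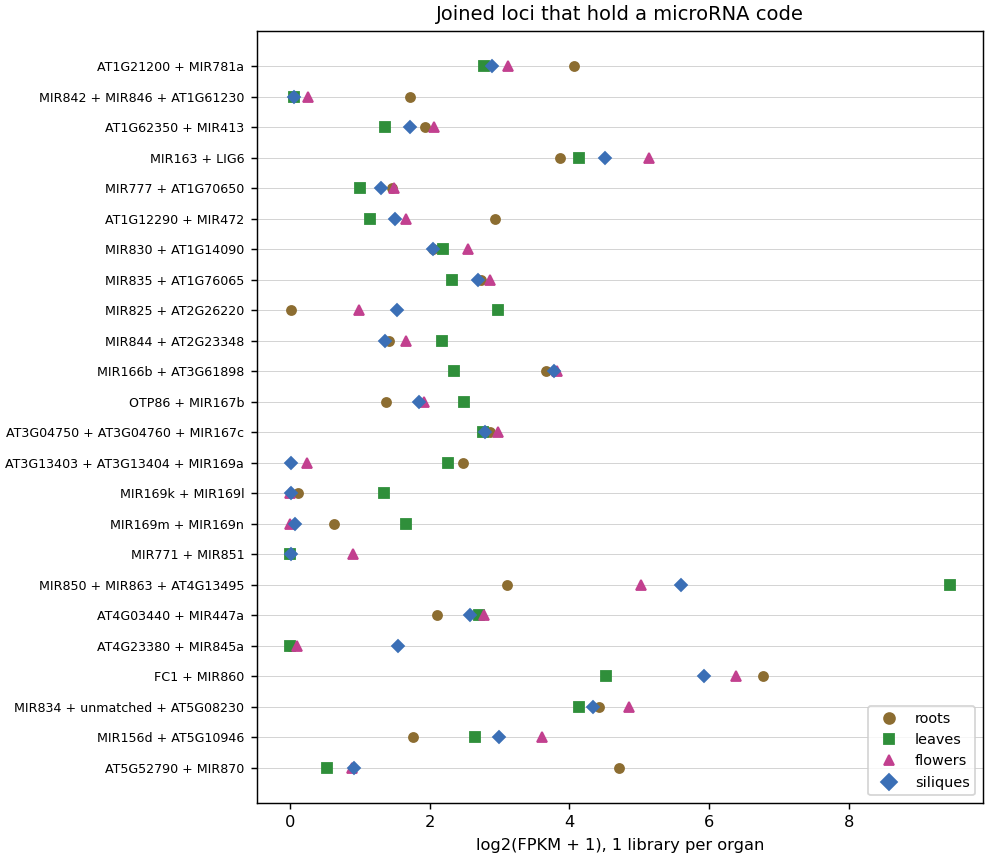
Values of the 24 joined loci with a microRNA code on the log2(FPKM + 1) scale (horizontal axis), 1 point per organ, with 1 line per locus named by its genes. Points at the same value overlap. The MIR850 and MIR863 locus stands far to the right in leaves at 693 FPKM, and the FC1 and MIR860 locus is next at 108 FPKM in roots.

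Genes of snoRNAs, snRNAs and tRNAs were joined with coding neighbours or with each other. Of 8 loci with snoRNA codes, whose RNAs guide the modification of ribosomal RNA, 6 were compared, with highest values from 5.69 to 101 FPKM. The highest was the locus of 3 snoRNA genes with HSD2 and HSD3, hydroxysteroid dehydrogenase genes, at 101 FPKM in roots, 59.2 in leaves, 94.2 FPKM in flowers and 64.1 FPKM in siliques. A cluster of AT4G39361, AT4G39363, AT4G39364 and AT4G39366, all snoRNA genes, was at 50.4, 33.1, 57.8 and 24.8 FPKM. Both were higher in roots and flowers than in leaves and siliques. Of 19 loci with tRNA codes 15 were compared, and 9 of these were highest in roots, as were 37.0% of all compared joined loci and 39.6% of loci with 1 code. CK1, a choline kinase gene with a glycine tRNA gene, was the highest at 52.7 FPKM in roots, 12.2 in leaves, 25.3 FPKM in flowers and 13.8 FPKM in siliques. The 4 loci with snRNA codes, of the spliceosome, had highest values of 3.48 to 19.8 FPKM.

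Pseudogene codes stood in 110 joined loci, of which 75 were compared, with a median highest value of 6.91 FPKM. Opposite-strand pairs were few. MPK10, a MAP kinase gene, and AT3G59800, which face each other with overlapping 3′ ends, were at 0.960 FPKM in roots, 1.23 in leaves, 1.20 FPKM in flowers and 5.14 FPKM in siliques. A separate row of AT3G59800 lay between 9.67 and 12.2 FPKM. KTF1, a factor of RNA-directed DNA methylation, and AT5G04310, with 30 bases between their 3′ ends, were at 11.4, 8.90, 14.2 and 9.49 FPKM. A separate row of AT5G04310 was highest in roots, at 2.70, 1.75, 1.53 and 0.826 FPKM in the same order. AT1G15825 and AT1G15830, also with overlapping 3′ ends, were at 0.350 FPKM in roots, 16.3 in leaves, 3.94 FPKM in flowers and 4.13 FPKM in siliques. A separate row of AT1G15830 was also highest in leaves, at 0.204, 9.09, 2.43 and 2.43 FPKM. These 3 joined loci were highest in siliques, flowers and leaves in turn, and the pairs were chosen after their values had been seen. The strand of the reads is not stated, and reads of genes that overlap on opposite strands cannot be told apart without it.

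The loci with the most codes lay in the chloroplast genome, where genes are transcribed together in long units. The locus of 13 codes was at 8.68 FPKM in roots, 55.7 in leaves, 27.2 FPKM in flowers and 39.9 FPKM in siliques. The 3 loci of 9 codes were at 0.666 to 1.76 FPKM in roots, 19.0 to 44.2 in leaves, 7.69 to 9.66 FPKM in flowers and 21.5 to 25.4 FPKM in siliques, and the locus of 8 codes at 2.54, 22.5, 12.9 and 22.4 FPKM. All 9 chloroplast loci were lowest in roots and highest in leaves or siliques. They made up 10.8% of the 83 rows of that genome, and 8 of the 158 mitochondrial rows (5.06%) were joined.

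The other 4 of the 5 longest gaps were seen in loci of all levels. AT2G12900 with AT2G13115, 105607 bases apart, stayed at or below 0.879 FPKM. AT3G04181 was joined across 98584 bases with AT3G04485 and AT3G04490, an exportin gene, at 21.7 FPKM in roots, 22.1 in leaves, 21.7 FPKM in flowers and 18.1 FPKM in siliques. AT3G60940 with AT3G61028, 57771 bases apart, and AT4G12870 with GILT, a thiol reductase gene, 39689 bases apart, lacked a usable status in 1 organ. The GILT locus was at 4.03 FPKM in roots, 4.86 in leaves and 618 in flowers, and its silique value, listed at 0, carried the status HIDATA, which marks a locus with too many reads to be estimated. In 3 of these 5 longest gaps the genes at the ends encode proteins at least 50% identical.

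Some codes of joined loci also named another row. This held for 105 of the 1816 codes, in 95 joined loci. Counted per code and other row, both rows were compared in 57 cases. The joined row was the higher in 40 of these cases, and both rows were highest in the same organ in 24. Where the other row was itself joined, the case entered from each side, and there joined rows are not set against rows with 1 code. The value of 1 row need not be the whole level of such a gene, and how its transcripts divide between the rows was not tested. AT1G73350 was at 15.6 FPKM in roots, 17.7 in leaves, 19.9 FPKM in flowers and 15.8 FPKM in siliques in its own row, above the 4.57, 3.32, 4.09 and 4.19 FPKM of its row joined with AT1G73340, a cytochrome P450 gene on the other strand.

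The deposited intervals were wide. The shares with a lower end above 0 in roots, given above, were also taken by the number of start groups. Joined loci held more start groups, sets of transcripts with 1 start, with a median of 3 against 1. With 1 start group the share was 27.3% (3 of 11) for joined loci and 7.18% for loci with 1 code, 77.7% of which had 1 group. It was 29.0% against 29.2% at 2 groups, 41.8% against 37.3% at 3 groups and 48.9% against 48.7% at 4 or more. Another row had the same interval on the chromosome for 336 joined loci (40.8%) and for 19.5% of loci with 1 code. Where the interval was their own, joined loci spanned a median of 4716 bases, beside 1830 bases.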

How the data were processed

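The values used are the FPKM that the authors deposited per assembled locus for each of 4 libraries, with their lower and upper interval ends and a status word, per the file headers. TopHat, Cufflinks and the TAIR10 build were used per the submitters' processing notes, with versions and settings not given in the sources used here. Sample columns left unused numbered 0.

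Loci with a usable status in all 4 organs and at least 1 FPKM in 1 organ were compared on log2(FPKM + 1). A call is a difference of at least 4-fold (2 on the log2 scale). Tau is the sum over the 4 organs of 1 minus the organ's log2 value divided by the highest one, divided by 3. Gene positions, kinds and proteins came from RefSeq TAIR10.1. Proteins were translated from its coding sequences and aligned globally with BLOSUM62, gap opening -10 and extension -0.5, in Biopython 1.88, and identity counts identical residues over the longer protein. Python 3.11.15, pandas 2.3.3, numpy 2.4.6 and matplotlib 3.10.9 were used, and the calls were tested on simulated data.

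The members, gene lists and thresholds were chosen with earlier results of these data known. Named loci are the 10 with the highest FPKM, the 8 with the largest ratio per organ-preferential list, 5 per direction of a matched pair, the 8 of lowest tau at 10 FPKM or more, the 10 pairs with the most alike proteins and 5 such loci with the largest ratio, the 5 with most codes, the 5 longest gaps and all with a microRNA. The summed neighbours, gap letters, distance classes, start groups, level classes, 1-fragment values and opposite-strand examples were added after the data had been seen, as were the resistance, snoRNA and tRNA examples and the code with a row of its own.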

Additional observations from a re-analysis of the deposited data

How the results depend on the processing

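Of 92 values recomputed under other settings, 46 stayed within 1.5 times the reported count or within the interval of the reported median. That interval ran from 0.180 to 0.211 for tau and from 17.1 to 21.2 for the highest FPKM. It was taken over loci, is not a deposited interval and does not measure variation between libraries. The 8 counts of calls without the 1 FPKM filter are among these 46 and could not differ. A 4-fold call on the FPKM + 1 scale cannot be reached by a locus under 1 FPKM. In the order roots over leaves, leaves over roots, flowers over siliques, siliques over flowers, then preferential to roots, leaves, flowers and siliques, the counts reported were 49, 55, 21, 13, 30, 5, 14 and 11. A pseudocount of 0.1 FPKM gave 75, 69, 43, 25, 37, 8, 24 and 17, and one of 5 FPKM gave 27, 31, 8, 6, 14, 4, 6 and 5. A threshold of 2-fold gave 146, 106, 79, 50, 75, 26, 44 and 33, and one of 8-fold gave 24, 27, 8, 6, 11, 4, 6 and 4. The shares over all compared loci moved as well. For roots over leaves, 9.97% of joined and 13.8% of all compared loci were called with 0.1 FPKM, and 3.59% and 3.89% with 5 FPKM. At 2-fold these shares were 19.4% and 23.6%, and at 8-fold 3.19% and 4.31%. Requiring intervals apart from those of the other organs gave 12, 17, 1, 5, 9, 2, 0 and 5. As reported, all 8 joined shares were below those of all compared loci, but with intervals apart 6 of 8 were above, where all compared loci had 0.643%, 0.711%, 0.209%, 0.166%, 0.413%, 0.0469%, 0.153% and 0.128%. Shares of leaves also turned. Leaves over roots went to 14.1% against 13.4% at 2-fold and 6.80% against 5.11% without the filter. Preferential to leaves went to 3.46% against 2.73% at 2-fold, 0.532% against 0.230% at 8-fold and 0.532% against 0.315% with 5 FPKM added. It went to 0.618% against 0.481% without the filter. Without the filter only the loci counted changed and not the calls, from 752 to 809 joined loci and from 23477 to 34071 in all. The other 5 alternatives left all 8 below. Restricting to loci of protein-coding genes gave 31 higher in leaves than in roots, 3 preferential to leaves and 9 to flowers, from 532 loci. The median tau of 0.196 was 0.225 with a pseudocount of 0.1 FPKM, 0.121 with 5 FPKM and 0.175 over loci at 5 FPKM or more. The median highest FPKM of 19.0 was 17.0 without the filter, 24.6 over loci at 5 FPKM or more and 21.4 over loci of protein-coding genes. An identity of 70% left 49 of the 89 loci with like proteins. Counts move with thresholds and filters by their construction, and weak loci rest on few fragments. No paired analysis was possible because each organ is 1 library and no test was made.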
